A study of Mus musculus with 6 samples.

Results

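Cytotoxic granule genes and death ligands of splenic iNKT cells were followed through 6 RNA-seq libraries. They are 10 genes of the 48709 in the deposited table, taken by name: the proteases Gzma, Gzmb and Ctsw, the pore former Prf1, the granule components Srgn, Nkg7 and Lamp1, the protease inhibitor Serpinb9, and the ligands Fasl and Tnfsf10. Invariant natural killer T (iNKT) cells are T cells that recognise lipids presented by CD1d, and here they were sorted from mouse spleen in the resting state. The labels describe 3 samples with the genotype WT and 3 with Gpx4 cKO, a conditional knockout of the glutathione peroxidase gene Gpx4. Nothing in the sources used here gives the Cre driver, the age of the mice or whether samples came from separate mice.

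The 6 libraries are numbered 18 to 23 in the table, and 0 of them carry a name found in the labels. No library was therefore assigned to WT or Gpx4 cKO. The question of the design, how Gpx4 deletion changes the transcriptome of these cells, cannot be answered here for these genes. Each library's value is given singly, and a difference between libraries is not a difference between genotypes.

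Cytotoxic lymphocytes kill along 2 routes. In the granule route, granzymes are stored on the proteoglycan serglycin in lysosome-related granules and enter the target cell with the help of perforin. In the ligand route, Fas ligand and TRAIL on the cell surface engage death receptors and start a caspase cascade. Cytotoxic cells guard themselves with serpins, of which mouse Serpinb9 inhibits granzyme B. iNKT cells are known to carry both routes and to raise them on activation.

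Exon reads per library ranged from 903524 in library 21 to 10122187 in library 19, an 11.2-fold span, and library 23 held 1916746. Levels are given as CPM, exon reads per 1000000 exon reads after TMM scaling, and a count of 0 allowed a level of 0.282 CPM at the depth of library 19 and of 3.62 CPM at that of library 21. The T cell gene Cd3e lay between 764 and 924 CPM and Zbtb16, which encodes the iNKT factor PLZF, between 245 and 357 CPM, while Cd8a had 1 read in all. Other cells left traces that differed between libraries. The summed B cell and plasma cell markers ranged from 1136 (library 18) to 6426 CPM (library 23), and the erythroid markers from 4.46 to 307 CPM in those same libraries. All intervals below are at a nominal 95% and cover counting error only, since reads copied by PCR are not independent molecules. Ratios of the highest to the lowest library, and of the widest step in a gene's order, take libraries picked by their values. Their intervals treat those libraries as fixed beforehand and do not allow for that choice.

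All 10 genes were read in every library. Gene positions below are those of the deposited table, in GRCm38. Whether a gene differed between libraries beyond counting error was asked with a chi-square test over all genes with at least 200 reads, adjusted by the Benjamini-Hochberg method. Of the 9 members with enough reads, 8 passed, beside 71.6% of all 9042 genes tested. A 2-fold or wider range between the highest and lowest library (prior count 2) was found in 4 of these 9, beside 26.2% of genes tested. The median range was 1.75-fold for the 9 members and 1.57-fold for all genes tested. Passing the test was thus common in the table, and the members are told apart better by the size and the order of their values. In bulk RNA, fewer cells of a type and less RNA per cell cannot be told apart.

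**Figure D1:**
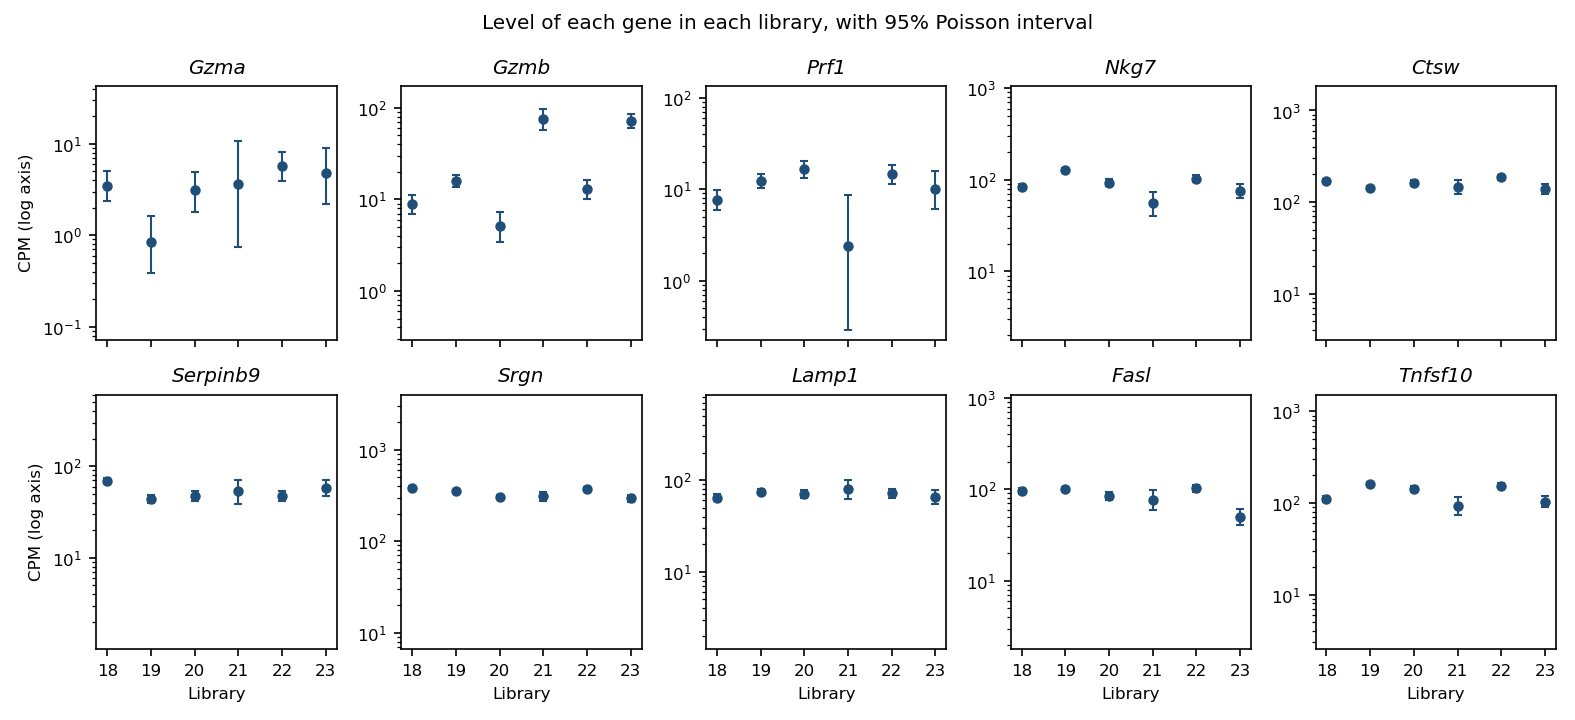
Level of each of the 10 genes in libraries 18 to 23. Points are CPM on a log axis of the same span in each panel, and bars are exact Poisson intervals. Gzmb sits at 74.8 and 72.2 CPM in libraries 21 and 23 and at or under 15.9 CPM in the others, while Srgn, Ctsw and Lamp1 are nearly level.

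**Figure D2:**
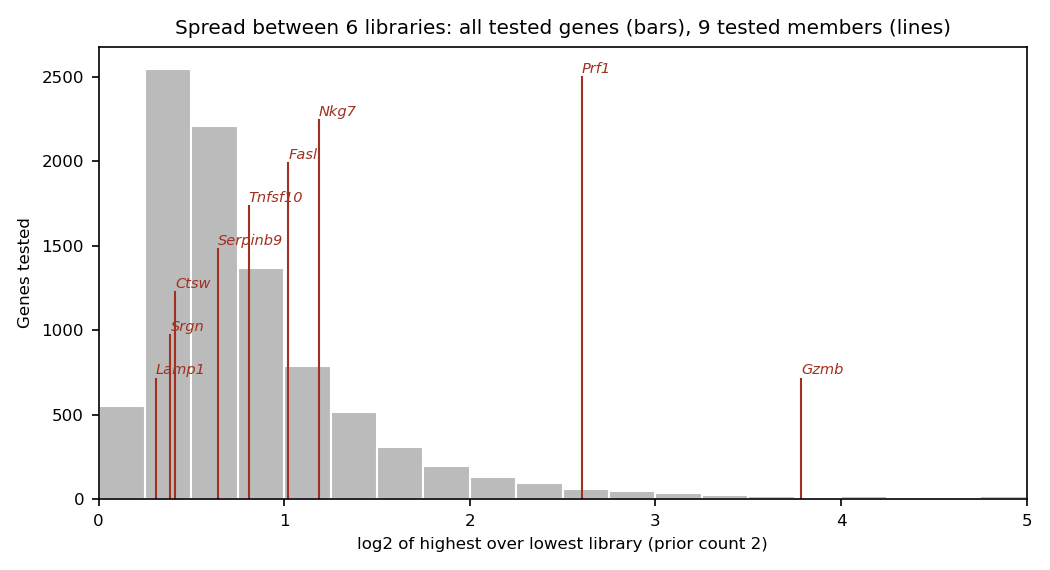
Range of each tested gene between the 6 libraries, as the log2 of the highest over the lowest CPM with a prior count of 2. Bars count all genes tested (80 genes past 5 on this axis are not drawn) and lines mark the 9 tested members, with no meaning in their height. Gzmb and Prf1 lie in the right tail, and Lamp1, Srgn and Ctsw lie left of most genes.

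Gzmb, which encodes the aspartate-specific protease granzyme B, varied most among the members. Its locus is chromosome 14, 56258856 to 56262260, minus strand (ENSMUSG00000015437). From library 18 through 23 the level was 8.79, 15.9, 5.09, 74.8, 12.9 and 72.2 CPM, on 73, 169, 28, 62, 70 and 137 reads. Libraries 21 and 23 stood far above the other four, and their intervals, 57.4 to 95.9 CPM and 60.6 to 85.4 CPM, overlapped. The step from library 23 down to library 19, the next in order, was 4.54-fold (conditional exact interval 3.60 to 5.72). From highest to lowest, library 21 over library 20, the ratio was 14.7 (9.26 to 23.9), wider than that of 98.3% of genes tested (chi-square adjusted p = 1.29e-126). Leaving library 20 aside, it spanned 8.51-fold.

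Reads on Gzmb introns, which are counted apart from the exon reads, had the same leading libraries. Per 1000000 intron reads of the library they were 1.05, 3.70, 1.62, 12.8, 3.99 and 7.31 from library 18 to 23. Only 10 and 12 intron reads stand behind the values of libraries 21 and 23, with Poisson intervals of 6.13 to 23.5 and 3.78 to 12.8 per 1000000. The interval of library 23 overlaps those of libraries 19 and 22, and that of library 21 overlaps library 22.

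Libraries 21 and 23 were the shallowest, and they also held the most cell cycle and mitochondrial transcripts. The mitochondrial share was 4.99% and 4.15% there and 3.36% to 3.62% in the others. The sum over 15 cell cycle genes reached 1038 and 1117 CPM there, and 324 to 525 CPM in the others. Tpx2 made up 217 CPM of the sum in library 21 and 42.7 CPM in library 23. Not all of these genes followed the sum. Plk1, Bub1 and Ccna2 in library 21, and Aurkb and Cdc20 in library 23, were below library 19, on 2 to 8 reads each. Mki67, a marker of dividing cells, was 392 and 558 CPM there and at most 250 CPM elsewhere. Top2a, the topoisomerase of dividing cells, was 239 and 303 CPM there and at most 144 CPM elsewhere. The part of depth, mitochondrial share or dividing cells in the Gzmb values was not tested.

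Markers of other cells that can express granzyme B were low, but library 21 had the highest sum of NK, mast cell and dendritic cell markers. The 13 NK cell markers summed to 138 CPM there and to 73.8 CPM, the lowest sum, in library 23. Klrb1c, which iNKT cells also carry in some strains, led the list (median 65.6 CPM) and ranged from 40.1 to 79.1 CPM. The NK receptor gene Ncr1 reached 6.03 CPM (library 21, 5 reads), Eomes at most 3.69 CPM, and Klra8 no read in any library. In library 21 the sum held 53.1 CPM of Klri2, which was at most 6.85 CPM elsewhere, and 48.3 CPM of Klrb1c. Markers of mast cells and basophils, 7 genes, summed to 4.14 to 19.3 CPM, with 19.3 in library 21 and 4.74 in library 23. Dendritic cell markers, 7 genes, summed to 6.75 to 24.1 CPM, with 24.1 in library 21 and 13.7 in library 23. Library 20, the lowest for Gzmb, came next to library 21 in the NK (121 CPM), mast cell and basophil (19.1 CPM) and dendritic cell sums (18.9 CPM). The CD8 genes summed to at most 2.95 CPM and to 0 in library 21. The part of these cells in the Gzmb values was not tested.

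**Figure D3:**
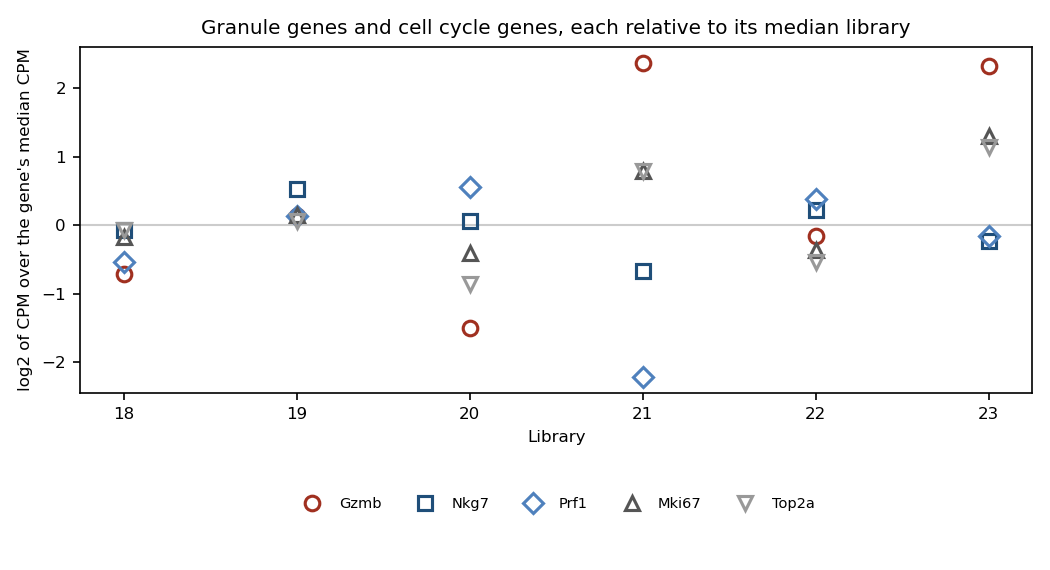
Gzmb, Nkg7, Prf1 and the cell cycle genes Mki67 and Top2a in each library, as the log2 of CPM over that gene's own median CPM. Gzmb, Mki67 and Top2a are above their medians in libraries 21 and 23, where the points of Nkg7 and Prf1 are below theirs. No intervals are drawn. In library 23 the Poisson intervals of Nkg7 and Prf1 include their medians, and in library 21 Prf1 rests on 2 reads.

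Gzma, which encodes the tryptase granzyme A, was the scarcest member. Chromosome 13 carries it from 113093825 to 113100979 on the minus strand (ENSMUSG00000023132). The level, library 18 first and 23 last, was 3.49, 0.847, 3.09, 3.62, 5.72 and 4.74 CPM, on 29, 9, 17, 3, 31 and 9 reads. Library 19, the deepest, was lowest, and the intervals of the other five overlapped one another. That of library 21, on 3 reads, also overlapped library 19. With 98 reads in all it fell under the minimum for the test. Counted with a minimum of 50 reads, it differed between libraries (chi-square adjusted p = 1.72e-05). The ratio of library 22 to library 19 was 6.75 (3.14 to 16.1), and it spanned 1.85-fold when library 19 was left aside.

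The balance between the granzymes can be read within a library, free of scaling between libraries. Of the reads on Gzma and Gzmb together, Gzmb took 71.6%, 94.9%, 62.2%, 95.4%, 69.3% and 93.8% from library 18 to 23. The Wilson intervals, likewise in order, were 62.2% to 79.4%, 90.7% to 97.3%, 47.6% to 74.9%, 87.3% to 98.4%, 59.7% to 77.5% and 88.7% to 96.7%. Libraries 19, 21 and 23 had shares above the intervals of libraries 18, 20 and 22. Library 19 reached its high share at 15.9 CPM of Gzmb, with the lowest Gzma level of the libraries. Gzmb has 1418 bases of exon and Gzma 878, so a share of reads overstates the Gzmb share of transcripts.

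The other 8 granzyme genes of the mouse were close to absent, and none had enough reads for the test. Gzmd, Gzme, Gzmg and Gzmn had no read in any library, Gzmk had 1 read and Gzmf had 4, all in library 19. Gzmc, a neighbour of Gzmb in the granzyme cluster, had 2 to 6 reads per library. Its level was 3.62 (library 21, 3 reads) and 3.16 CPM (library 23, 6 reads), and no more than 0.727 CPM in the others. Gzmm had 0 to 6 reads per library.

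Prf1 encodes perforin, the pore former that lets granzymes into the target cell. The table places it on chromosome 10 at 61297836 to 61304263, plus strand (ENSMUSG00000037202). Over libraries 18 to 23 in sequence the level was 7.71, 12.3, 16.5, 2.41, 14.6 and 10.02 CPM, on 64, 131, 91, 2, 79 and 19 reads. Library 20 had the highest value and library 21 the lowest. On its 2 reads library 21 had an interval of 0.292 to 8.72 CPM, which overlapped those of libraries 18 and 23, so its place below them is not settled. The ratio of library 20 to library 21 was 6.86, and with 2 reads below it the interval ran from 1.84 to 57.5. The gene differed between libraries (chi-square adjusted p = 1.47e-05), and without library 21 its range was 2.15-fold.

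Prf1 introns did not place library 21 lowest. They held 10 reads there, 83.3% of the reads of the gene (Wilson interval 55.2% to 95.3%), against 32.1% to 51.9% in the other libraries. The interval overlapped that of library 18 (43.5% to 60.2%). Scaled to intron totals, the Prf1 intron level of library 21 was 12.8 per 1000000 and that of the others 5.48 to 11.7 per 1000000. The Poisson interval of library 21, 6.13 to 23.5, overlapped those of all other libraries. The ratio of library 21 to library 23 was 2.33 (0.852 to 6.49), so the intron levels are not told apart. With exon and intron reads together, the range of Prf1 between libraries was 1.80-fold.

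Of the reads on Gzmb and Prf1 together, Gzmb took 53.3%, 56.3%, 23.5%, 96.9%, 47.0% and 87.8% from library 18 to 23. The Wilson intervals, likewise in order, were 45.0% to 61.4%, 50.7% to 61.8%, 16.8% to 31.9%, 89.3% to 99.1%, 39.1% to 55.0% and 81.8% to 92.1%. Libraries 18, 19 and 22 overlapped near an even split, library 20 lay below them, and libraries 21 and 23 lay above. These are shares of reads and not of transcripts, since Prf1 has 2054 bases of exon and Gzmb has 1418.

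Upstream sequences are shown for the granzymes and for Prf1, the protease and pore genes of the granule route. The windows hold the 250 bases before the RefSeq start of each gene in GRCm38.p6, read 5′ to 3′ on the strand of the gene. Capitals mark matches, on either strand, to AP-1 (TGANTCA), RUNX (TGTGGT), CRE (TGACGT) and T-box (AGGTGTG) letters and to an IRF element, and no matches overlap in these windows.
Gzmb (chr14:56262335-56262584, minus strand): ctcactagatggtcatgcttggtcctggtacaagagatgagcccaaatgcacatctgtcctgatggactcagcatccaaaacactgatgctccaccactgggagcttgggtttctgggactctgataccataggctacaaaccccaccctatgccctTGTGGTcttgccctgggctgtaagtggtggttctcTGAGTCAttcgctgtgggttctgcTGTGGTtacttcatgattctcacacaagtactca
Gzma (chr13:113100982-113101231, minus strand): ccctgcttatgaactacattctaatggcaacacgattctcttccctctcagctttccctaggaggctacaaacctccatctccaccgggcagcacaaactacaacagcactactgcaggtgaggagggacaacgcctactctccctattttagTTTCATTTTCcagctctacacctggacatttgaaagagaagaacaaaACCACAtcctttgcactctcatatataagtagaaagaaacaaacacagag
Prf1 (chr10:61297586-61297835, plus strand): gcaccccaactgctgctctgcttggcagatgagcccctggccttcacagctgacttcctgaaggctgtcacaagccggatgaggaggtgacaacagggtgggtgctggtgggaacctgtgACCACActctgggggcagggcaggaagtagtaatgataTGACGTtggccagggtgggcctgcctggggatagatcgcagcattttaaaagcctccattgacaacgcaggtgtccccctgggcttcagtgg

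The Gzmb window held the AP-1 letters 58 bases before the start and the RUNX letters 93 and 34 bases before it. The Gzma window held the IRF element 97 bases and the RUNX letters 50 bases before the start. In the Prf1 window the RUNX letters stood 130 bases and the CRE letters 92 bases before the start. RefSeq windows, 10 in all, were found for 9 of the 10 members, with 2 windows for Srgn. A member is counted if any of its windows held the letters, while the shares over all windows count each window. RUNX letters occurred in those of 6, the IRF element in those of 4, CRE letters in those of 2, AP-1 letters in that of Gzmb and T-box letters in that of Nkg7. Among all 32851 windows of this length, 14.0% held the RUNX letters, 6.75% AP-1, 6.47% CRE, 5.10% T-box and 2.98% the IRF element. A match of letters is no binding site, and factor binding was not measured.

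Nkg7 encodes a membrane protein of cytotoxic granules that takes part in their release. Its locus is chromosome 7, 43437073 to 43438249, plus strand (ENSMUSG00000004612). Listed by library number, 18 to 23, the level was 83.7, 127, 92.4, 55.5, 103 and 75.4 CPM, on 695, 1346, 508, 46, 557 and 143 reads. Libraries 19 and 22 were highest and libraries 21 and 23 lowest, though the interval of library 23 (63.5 to 88.8 CPM) overlapped those of libraries 18 and 20. The ratio of library 19 to library 21 was 2.28 (1.70 to 3.13, chi-square adjusted p = 1.02e-24), and without library 21 the range was 1.68-fold. Reads on its introns numbered 9 to 39 per library. Scaled to intron totals, their level was highest in libraries 21 and 23, with intervals that overlapped those of libraries 19 and 22. The interval of library 23 also overlapped that of library 18. The level was 11.5 and 6.70 per 1000000 intron reads in libraries 21 and 23 and 1.62 to 4.43 elsewhere. Between libraries 21 and 20 the ratio was 7.10 (2.50 to 20.2).

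Srgn encodes serglycin, the proteoglycan core on which granzymes are packed, and it was the most abundant member. Chromosome 10 carries it from 62493833 to 62527451 on the minus strand (ENSMUSG00000020077). In libraries 18 to 23, in that order, the level was 383, 356, 308, 309, 376 and 293 CPM, from 256 reads in library 21 to 3778 reads in library 19. The spread was narrow, 1.31-fold (1.19 to 1.43), smaller than that of most genes tested, and yet past counting error (chi-square adjusted p = 4.92e-16).

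The introns of Srgn varied more than its exons. Their share of the gene's reads was 50.8%, 39.4%, 66.0%, 65.7%, 56.5% and 64.7% from library 18 to 23. The Wilson intervals, likewise in order, were 49.6% to 52.0%, 38.2% to 40.6%, 64.6% to 67.3%, 62.2% to 69.0%, 55.1% to 58.0% and 62.3% to 67.0%. Library 19 stood lowest and library 18 next, while libraries 20, 21 and 23 overlapped at the top. This spread of 26.6 percentage points exceeded that of 94.96% of the 5216 genes with at least 50 reads in every library. The intron share over all genes moved little, from 45.5% to 50.6%. Scaled to intron totals, Srgn introns ranged from 267 per 1000000 in library 19 to 626 per 1000000 in library 21, a ratio of 2.35 (2.12 to 2.59). No other gene of the table overlaps Srgn, and whether the counting used strand is not stated in those sources.

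Ctsw encodes cathepsin W, a papain-family protease of cytotoxic lymphocytes. The table places it on chromosome 19 at 5465240 to 5468498, minus strand (ENSMUSG00000024910). From library 18 through 23 the level was 170, 143, 161, 147, 186 and 140 CPM. Library 22 was highest, with an interval of 175 to 198 CPM above those of libraries 19, 20 and 23. The range was 1.33-fold (1.16 to 1.53, chi-square adjusted p = 2.22e-09).

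Lamp1 encodes a lysosomal membrane glycoprotein whose appearance on the cell surface marks the release of granules. Its locus is chromosome 8, 13159161 to 13175338, plus strand (ENSMUSG00000031447), where Grtp1, with 14 reads in all, overlaps it on the other strand. The level, library 18 first and 23 last, was 64.2, 75.0, 71.3, 79.6, 71.4 and 65.4 CPM. It was the tested member that did not pass, with a spread not past counting error (chi-square adjusted p = 0.113). Its range was 1.24-fold, with an interval that began at 0.945. With intron reads added it passed (adjusted p = 0.0043).

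Serpinb9 encodes the inhibitor of granzyme B. Chromosome 13 carries it from 33003250 to 33017957 on the plus strand (ENSMUSG00000045827). Over libraries 18 to 23 in sequence the level was 68.9, 44.1, 47.6, 53.1, 47.4 and 58.0 CPM. Library 18 was highest, 1.56-fold above library 19 (1.38 to 1.77, chi-square adjusted p = 1.80e-11). The call rests on library 18: without it the range was 1.32-fold and the adjusted p 0.146.

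Of the reads on Gzmb and Serpinb9 together, Gzmb took 11.3%, 26.5%, 9.66%, 58.5%, 21.4% and 55.5% from library 18 to 23. The Wilson intervals of libraries 21 and 23 were 49.0% to 67.4% and 49.2% to 61.5%. Libraries 21 and 23 thus lay above the remaining libraries, whose highest upper bound was 30.1%. Serpinb9 has 3494 bases of exon, so a share of reads understates the Gzmb share of transcripts. Among related serpins, Serpinb6b was the most abundant, at a median of 105 CPM, and Serpinb6a had 18.6 CPM. Serpinb1a ranged 3.62-fold with a prior count of 2, from 4.73 (library 20) to 18.1 CPM (library 21, 15 reads). Serpinb9c, Serpinb9d, Serpinb9e, Serpinb9f and Serpinb9g had no read in any library, and Serpinb9b had 4.

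**Figure D4:**
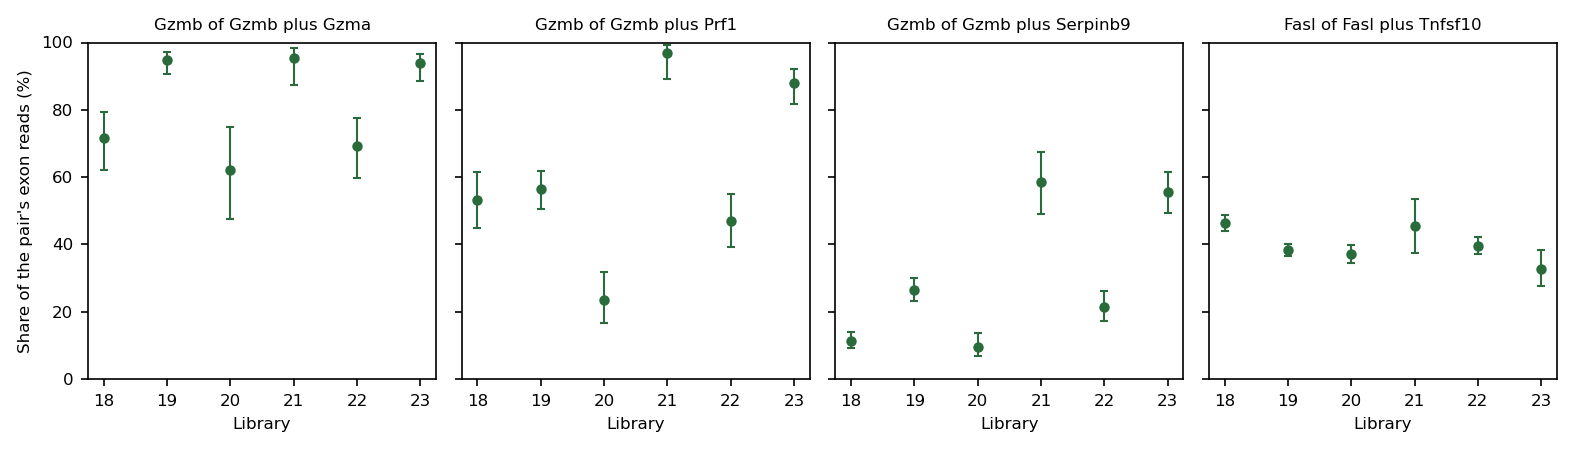
Within-library shares of exon reads for pairs of genes, in percent, with Wilson intervals. Libraries 21 and 23 hold the highest shares of Gzmb beside Prf1 and beside Serpinb9, library 19 joins them beside Gzma, and the share of Fasl among death ligand reads stays between 32.6% and 46.3%.

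Fasl encodes Fas ligand, which kills cells that carry the receptor Fas. The table places it on chromosome 1 at 161780689 to 161788495, minus strand (ENSMUSG00000000817). Listed by library number, 18 to 23, the level was 95.2, 101, 84.7, 77.2, 102 and 50.1 CPM, on 790, 1071, 466, 64, 553 and 95 reads. Library 23 was lowest, with an interval of 40.5 to 61.2 CPM, below those of the deeper libraries 18, 19, 20 and 22. The ratio of library 22 to library 23 was 2.04 (1.64 to 2.56, chi-square adjusted p = 4.92e-10), and without library 23 the range was 1.32-fold.

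Tnfsf10 encodes TRAIL, the ligand of the mouse death receptor encoded by Tnfrsf10b. Its locus is chromosome 3, 27317028 to 27342427, plus strand (ENSMUSG00000039304). In libraries 18 to 23, in that order, the level was 111, 163, 143, 92.9, 155 and 103 CPM, on 918, 1731, 788, 77, 841 and 196 reads. Libraries 19, 20 and 22 lay above libraries 18, 21 and 23, with no overlap of intervals between these sets. The ratio of library 19 to library 21 was 1.75 (1.40 to 2.23, chi-square adjusted p = 9.92e-26).

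Read per length, the order of the ligands turned. By the deposited RPKM, reads per kilobase of exon and per 1000000, Fasl stood above Tnfsf10 in 6 of 6 libraries. The ratio of the RPKM values, Fasl over Tnfsf10, was 2.34, 1.68, 1.61, 2.26, 1.79 and 1.32 from library 18 to 23. In exon reads Fasl took 46.3% of the pair in library 18 (Wilson interval 43.9% to 48.6%) and 32.6% in library 23 (27.5% to 38.2%). The exon length of Tnfsf10 in the table is 5266 bases and that of Fasl 1937.

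Most reads of Fasl fell on its introns, and most of the Tnfsf10 reads did not. The intron share of Fasl ran from 63.7% in library 20 to 73.3% in library 23, and that of Tnfsf10 from 20.8% in library 20 to 30.0% in library 21. Over all libraries the share was 67.3% for Fasl, 53.4% for Srgn, 43.9% for Prf1, 42.5% for Serpinb9, 23.6% for Tnfsf10, 20.4% for Ctsw, 14.4% for Gzmb, 13.3% for Lamp1, 9.26% for Gzma and 3.20% for Nkg7. These shares also depend on how much intron a gene has. Nkg7 reached 16.4% in library 21 (Wilson interval 8.86% to 28.3%) and 7.14% in library 23 (4.03% to 12.3%), with 1.74% to 3.47% in the other libraries.

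**Figure D5:**
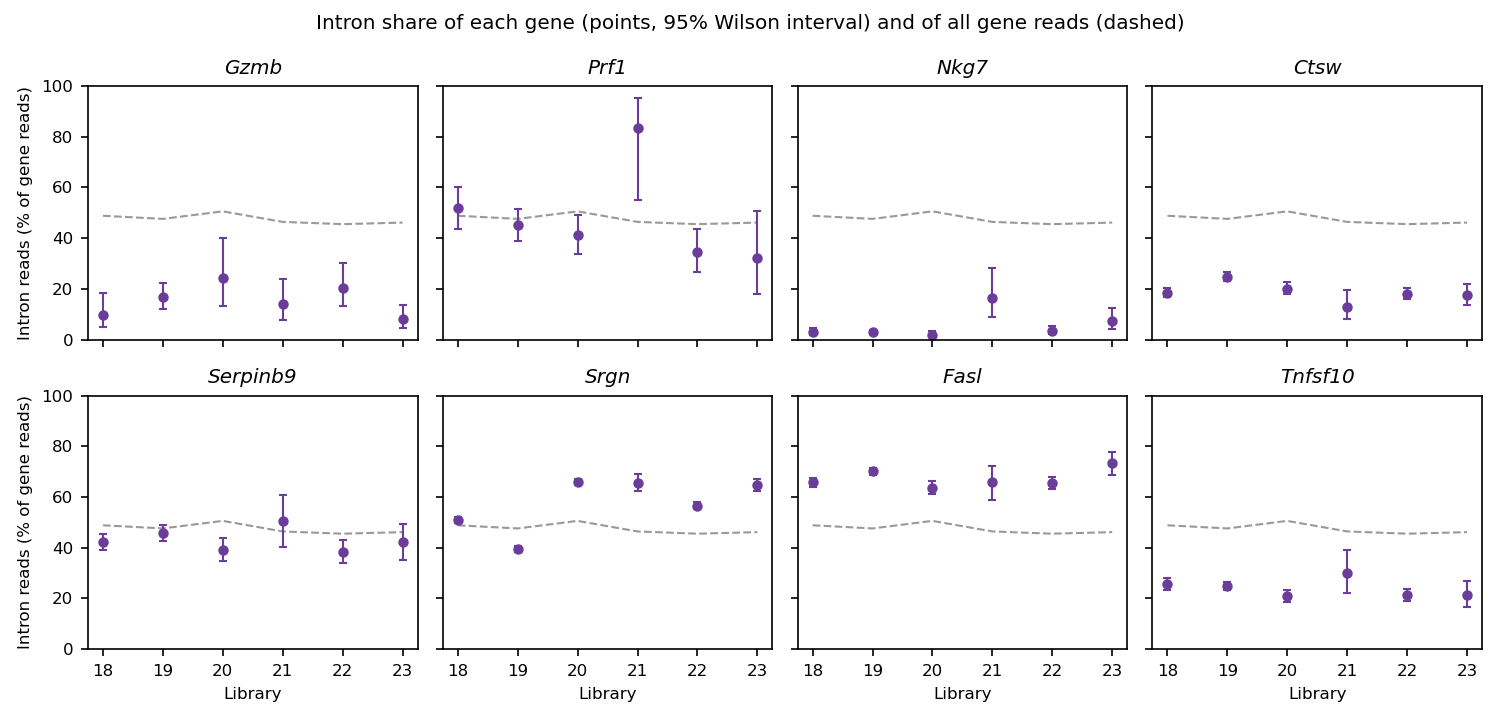
Intron share of reads, in percent, for 8 members by library. Points have Wilson intervals and the dashed line is the share over all gene reads. Srgn spans 39.4% to 66.0%, Prf1 stands at 83.3% in library 21 on 12 reads, and Fasl lies above the dashed line in all libraries.

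Levels can be compared between genes only per length, and the median RPKM gave this order: Srgn 71.6, Ctsw 56.4, Nkg7 42.7, Fasl 20.7, Lamp1 12.2, Tnfsf10 10.6, Serpinb9 6.65, Gzmb 5.07, Prf1 2.63 and Gzma 1.85. Only the step from Nkg7 to Fasl separated the ranges over the 6 libraries, 26.5 to 70.0 RPKM for Nkg7 and 11.8 to 26.3 RPKM for Fasl. Lamp1 and Tnfsf10 traded places in 3 of 6 libraries, as did Prf1 and Gzma. Gzmb moved through this order: at 23.0 RPKM in library 21 and 23.2 RPKM in library 23 it stood above Fasl, and at 1.49 RPKM in library 20 it stood below Prf1.

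The members did not share an order of libraries. On log2 CPM over the 6 libraries, Pearson r was 0.94 between Nkg7 and Tnfsf10, 0.825 between Nkg7 and Prf1, and 0.80 between Prf1 and Tnfsf10. Gzmb had r of -0.66 with Prf1, -0.64 with Nkg7 and 0.19 with Gzma. Several of these rest on library 21, where Prf1 had 2 reads. Over the 5 libraries without it, r was 0.46 between Nkg7 and Prf1, 0.75 between Prf1 and Tnfsf10, 0.92 between Nkg7 and Tnfsf10, -0.35 between Gzmb and Prf1, and -0.33 between Gzmb and Nkg7. Without library 23, r between Gzmb and Gzma was 0.010. These values describe 6 points that share library and depth, and no test was made of them. The genes of highest r with Gzmb, picked from 6409 compared, were Ostf1 and Lmnb1, with r of 0.995 and 0.991, and Trim59, at 0.990. A high r does not mean a change of like size, and Ostf1 ran only from 66.7 (library 20) to 90.5 CPM (library 21). Lmnb1, a nuclear lamina gene, was at 86.9 and 89.6 CPM in libraries 21 and 23 and no higher than 56.3 CPM elsewhere. For Nkg7 they were Dram2 (r of 0.996), Slc25a37 and Edaradd (0.99 each). For Prf1 they were Ccdc171, Acd and Ppme1, and for Fasl they were Cmtm7, Nfatc1 and Ppm1f, all at 0.99. The genes that reached 0.95 numbered 28 for Gzmb, 36 for Nkg7, 57 for Prf1 and 37 for Fasl. The likeness to Prf1 includes its value on 2 reads in library 21.

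Genes that load and move the granules were counted beside the 71.6% of all tested genes that passed and the 26.2% that spanned 2-fold. The ranges of listed genes are given, as for these counts, with a prior count of 2. Of the enzymes and inhibitors that process granule proteases, 5 of 6 tested passed and 0 of 6 spanned 2-fold. Ctsc, the dipeptidase that activates granzymes, was level at 53.5 to 66.4 CPM (chi-square adjusted p = 0.45). Ctsb had a median of 396 CPM, Ctsd 238 CPM and Cst3, a secreted cystatin, 76.9 CPM. Of the tested genes of this list Ctsd had the widest range, from 154 (library 21) to 258 CPM (library 19), and Cstb followed with 1.51-fold.

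Of the genes for granule biogenesis and exocytosis, 11 of 16 tested passed and 0 spanned 2-fold, with a median range of 1.39-fold. Lyst, the lysosomal trafficking regulator, had the highest median CPM of these genes (1506 CPM). It ranged from 1079 and 1087 (libraries 21 and 23) to 2068 CPM (library 19). Coro1a, an actin regulator, had a median of 893 CPM, the Rab27 effector gene Sytl2 307 CPM and Rab7 274 CPM. Per length the order differed, with a median RPKM of 151 for Coro1a, 56.8 for Lyst, 50.8 for Rab7 and 13.3 for Sytl2. Sytl3, of the same effector family, was widest after Lyst, from 38.0 (library 18) to 71.7 CPM (library 19). Among lysosomal membrane and sorting genes 5 of 9 tested passed and 0 spanned 2-fold. By median CPM Laptm5 led them at 1177 CPM, followed by the mannose-6-phosphate receptors M6pr (307 CPM) and Igf2r (209 CPM) and by Scarb2 (84.1 CPM). The widest there were Slc29a3 (1.79-fold, adjusted p = 0.277) and Npc2 (1.74-fold, adjusted p = 1.13e-05).

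Receptors and signalling genes that answer death ligands passed in 12 of 16 tested, and 8 of 16 spanned 2-fold. The inhibitors of death signalling led in level, Birc3 with a median of 170 CPM, Xiap 149 CPM, Cflar 145 CPM and Birc2 119 CPM. Fas, the receptor of Fas ligand, ranged from 13.3 (library 21) to 27.9 CPM (library 23), and Tnfrsf10b, the receptor of TRAIL, from 4.52 (library 19) to 12.1 CPM (library 21). Bid, a granzyme B and caspase substrate, was 3.62 CPM in library 21 (3 reads) and 27.8 to 32.1 CPM in the others. The adaptor gene Fadd was 59.1 CPM in library 21 (49 reads) and 8.44 to 18.4 CPM in the others. Both extremes fall in library 21, the shallowest.

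Of the other ligands of the tumour necrosis factor family, 4 of 6 tested passed and 0 spanned 2-fold. Ltb, which encodes lymphotoxin beta, had a median of 337 CPM, Cd40lg 74.7 CPM, Tnfsf14, which encodes LIGHT, 31.6 CPM and Tnf 23.0 CPM. Tnfsf14 was widest among those tested, from 24.1 (library 21) to 46.3 CPM (library 22), and Cd40lg ranged from 47.4 (library 23) to 88.2 CPM (library 20). Cd70 had no read.

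Transcription factors linked to the cytotoxic programme passed in 17 of 18 tested, and 9 of 18 spanned 2-fold, with a median range of 1.99-fold. By median CPM Id2 led at 914 CPM, followed by Runx1 (230 CPM), Tcf7 (204 CPM) and Irf1 (192 CPM). Per length Tcf7 (median 34.3 RPKM) and Irf1 (22.7 RPKM) stood above Runx1 (8.98 RPKM). Klf2, a factor of resting and recirculating T cells, was 8.38 CPM in library 19 and 35.9 to 67.5 CPM in the others. Zeb2 ranged from 5.30 (library 18) to 29.0 CPM (library 23). Eomes, which drives cytotoxic genes in NK and CD8 cells, had at most 3.69 CPM. Tbx21, another T-box factor of the list, was well read, at a median of 94.1 CPM. It ranged 2.70-fold, from 59.0 (library 23) to 160 CPM (library 18), and passed (chi-square adjusted p = 1.56e-49). Klf2 was highest in libraries 23 and 21 (67.5 and 66.4 CPM), the leading libraries for Gzmb, followed by library 20 (54.5 CPM), the lowest for Gzmb.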

How the data were processed

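RNA of sorted splenic iNKT cells was sequenced in 6 samples. Per the labels' protocols, a NucleoSpin RNA XS Micro kit and a QIAseq UPXome library kit were used, and the submitters' processing notes name GRCm38 and mm10. The sources used here do not give the aligner, the counter, the annotation release or the use of strand or molecular identifiers. Of 10 members, 6 have the same start, end and strand in GENCODE M21.

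Per the file headers, the deposited table gives raw counts of exon reads, the fraction of a gene's reads on introns, RPKM and exon length, and 11 further columns of values per library were not used. The deposited RPKM was scaled by the authors to more reads than those on exons (exon reads were 40.9% to 49.1% of its denominator), so it serves for order between genes. Intron reads were recovered from the deposited fraction. Library names match 0 labels, so the planned edgeR comparison of Gpx4 cKO with WT was not run.

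TMM factors (0.917 to 1.05) came from edgeR 4.0.16 under R 4.3.3 on 9510 genes kept by filterByExpr. The chi-square test had 5 degrees of freedom, a threshold of 0.05 and a minimum of 200 reads. It was tested on simulated Poisson counts only, which cannot show how it behaves with PCR copies or with variation between animals. Reads from several loci could be shared between near-identical granzyme and serpin genes. The members, lists and tests were chosen with earlier results of these data known. Named genes are the 10 members, per list the 4 highest by median CPM and 2 widest, the leading markers, and the 3 genes of highest r (mean of at least 20 CPM). Fas, Tnfrsf10b, Klri2, Ncr1, Eomes, Tbx21, Tpx2, Top2a, Plk1, Bub1, Ccna2, Aurkb, Cdc20 and Cd70 were named after their values were seen. So were the granzymes and serpins at or near 0, the motifs, and the measures of intron spread and of gaps between neighbouring libraries. Correlations with a library left out were added after seeing the data. The left-out and intron alternatives kept the TMM factors. Of the listed genes, Vamp7 was not matched.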

Additional observations from a re-analysis of the deposited data

How the results depend on the processing

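No paired analysis was possible because the library names carry no genotype or replicate number of the labels. The count of members spanning 2-fold, 5 of 10 with Gzma included, was 2 with exon and intron reads together and ran from 3 to 5 when each library was left out in turn (3 without library 19). It was 6 with total exon reads in place of TMM, where Tnfsf10 reached 2.01-fold, and 6 by deposited RPKM. The summed level of the 10 genes ranged 1.23-fold between libraries, 1.33-fold with total exon reads, 1.38-fold by deposited RPKM, and 1.19 to 1.23-fold with a library left out. Genes called in the whole table numbered 6473, 6465 with DESeq2 1.42.0 size factors, 11904 of 22065 with no minimum beyond 1 read, and 5080 to 6155 with a library left out. Members called numbered 8 of 9, and 7 to 8 with a library left out. Of the 9 tested members, only Serpinb9, without library 18, and Lamp1, with intron reads, crossed the threshold under the alternatives run. Srgn ranged 1.57-fold with intron reads and 1.45-fold by RPKM. With 2 Prf1 and 3 Gzma reads, library 21 cannot rank these genes.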

Other observations

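Traces of other blood cells differed between libraries apart from the granule genes. Platelet and megakaryocyte markers summed to 17.9 CPM in library 23 and to at most 8.31 CPM elsewhere. Monocyte and macrophage markers summed to 5.56 to 10.7 CPM, and the 9 neutrophil markers to 0 (library 19) to 4.22 CPM (library 23). Of the latter, S100a8, Retnlg, Camp, Ngp and Ltf had no read in any library, Mpo had 27 reads and Elane 12. In library 21 the mitotic gene Tpx2 was at 217 CPM, beside 42.7 CPM in library 23 and 11.8 to 17.9 CPM in the others.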
